A study of Homo sapiens with 6 samples.

Results

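NPM1, NPM3, NCL, NOLC1, AATF and MYBBP1A encode proteins that are concentrated in the nucleolus, the nuclear body in which ribosomal RNA is made and ribosomes are assembled. The 6 genes were taken by symbol from the deposited table, which lists 25662 genes, and all 6 were found there and reached the level needed for the test. Their transcripts were measured in HCT116 cells, an established line from a human colorectal carcinoma grown in McCoy's 5a medium with 10% serum, as 3 libraries of cells treated with 1 µM BMH-21 for 24 h and 3 libraries of control cells. BMH-21 is a DNA intercalator and an inhibitor of RNA polymerase I, which makes the ribosomal RNA precursor. The controls received DMSO according to the treatment protocol but carry 0 h in their titles, so the drug and the time in culture cannot be told apart. The series describes the replicates as biological, and no genotype change is stated for either group.

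Nucleoli hold layers with different protein contents. NPM1 (nucleophosmin) is an abundant oligomeric protein of the outer granular component, and NPM3 is a smaller relative that binds NPM1. NCL (nucleolin) binds nascent ribosomal RNA, and NOLC1 (Nopp140) is a phosphoprotein that binds small nucleolar ribonucleoproteins and treacle. AATF (Che-1) acts in a small complex in the maturation of the small ribosomal subunit and also in transcription and the DNA damage response. MYBBP1A binds RNA polymerase I and has been linked to p53 activation. When ribosomal RNA synthesis is blocked, several of these proteins are known to leave the nucleolus, which a transcript measurement does not show.

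All 6 genes are on GRCh38 chromosomes in GENCODE release 29. NPM1 lies on chromosome 5 from 171387116 to 171411137 on the plus strand, and NPM3 on chromosome 10 from 101781325 to 101783413 on the minus strand. NCL spans 231453531 to 231483641 on the minus strand of chromosome 2 and carries small nucleolar RNA genes inside it, among them SNORD20 and SNORD82. NOLC1 spans 102152176 to 102163871 on the plus strand of chromosome 10. AATF spans 36948875 to 37056871 on the plus strand and MYBBP1A 4538897 to 4555631 on the minus strand of chromosome 17. The 3′ end of MYBBP1A overlaps the end of SPNS2 on the opposite strand. SPNS2 averaged 5.44 TPM after BMH-21 and 3.78 TPM in controls, and whether strand was used in counting is not given in the sources used here.

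Promoter windows in the RefSeq table for GRCh38.p14 matched 5 of the 6 genes, with none for NOLC1. The 250 bases before the RefSeq start are shown for NPM1 and NPM3, relatives of which NPM3 passed the test described below, and for NCL, the next most abundant transcript. The RefSeq starts used for NPM1 and NCL, and those of AATF and MYBBP1A, lie inside the longer GENCODE spans given above. The table holds another NPM1 window, around the GENCODE start at 171387116, which has a CCAAT and is not shown. Capitals mark a TATATATA stretch in NPM1 (chr5:171387599-171387848, plus strand), a CCGGAA element of the ETS type in NPM3 (chr10:101783447-101783696, minus strand) and CCAAT elements, once as the reverse complement, in NCL (chr2:231464485-231464734, minus strand).
NPM1: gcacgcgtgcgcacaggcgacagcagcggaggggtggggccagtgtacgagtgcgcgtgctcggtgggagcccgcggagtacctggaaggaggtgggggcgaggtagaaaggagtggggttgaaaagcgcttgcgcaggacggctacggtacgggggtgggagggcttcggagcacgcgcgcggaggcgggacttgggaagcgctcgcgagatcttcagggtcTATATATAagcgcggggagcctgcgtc
NPM3: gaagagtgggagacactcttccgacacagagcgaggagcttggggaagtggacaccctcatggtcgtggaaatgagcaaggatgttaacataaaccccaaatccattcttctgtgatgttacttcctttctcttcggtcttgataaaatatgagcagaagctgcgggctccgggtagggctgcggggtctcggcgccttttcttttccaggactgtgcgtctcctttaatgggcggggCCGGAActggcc
NCL: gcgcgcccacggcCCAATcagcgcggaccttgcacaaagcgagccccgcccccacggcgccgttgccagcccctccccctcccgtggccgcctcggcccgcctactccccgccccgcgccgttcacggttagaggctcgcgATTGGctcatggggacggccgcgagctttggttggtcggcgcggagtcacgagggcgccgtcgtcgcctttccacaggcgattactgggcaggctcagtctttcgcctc

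The windows of 300 bases, 250 before and 50 after the start, were also searched on both strands for CACGTG, the palindromic E-box bound by MYC with MAX. It was present in the windows of AATF and MYBBP1A, and its letters were not in those of NPM1 (either window), NPM3 or NCL. The AATF window also holds a CCAAT and a CCGGAA. Counted from the RefSeq start, the E-box of AATF is at -157 to -152, before the start. That of MYBBP1A is at 27 to 32, after the start and inside the GENCODE span. Shown with the E-box in capitals, the AATF element lies at chr17:36948785-36948814 on the plus strand and the MYBBP1A element at chr17:4555340-4555369 on the minus strand.
AATF: gacagaagcggtCACGTGccttggcgcgct
MYBBP1A: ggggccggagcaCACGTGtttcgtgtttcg
Over all 35116 promoter windows of that length, 7.26% hold CACGTG, 34.6% hold CCAAT, 17.2% hold CCGGAA and 3.99% hold TATATA on either strand. The TATATATA stretch of NPM1 contains TATATA in 2 overlapping copies. The motifs were chosen after the sequences were seen, and a match describes letters and not binding.

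The deposited values are TPM, a transcript's share of its library with length divided out, so the depth behind each value is unknown and levels of different genes can be set side by side. Because each value is a share, it says nothing of the amount of RNA in a cell. TPM totals were 990744 to 992038 per library. The epithelial genes EPCAM, KRT8 and KRT18 were abundant, with EPCAM between 134 and 147 TPM after BMH-21 and between 77.1 and 109.6 TPM in controls. VIL1, also looked for as an epithelial marker, went the other way, at 0.27 TPM or less in each library. PECAM1 of endothelium was at 0.016 TPM or less. COL1A1 of fibroblasts was at 1.83 to 3.23 TPM after BMH-21 and 3.64 to 4.76 TPM in controls. BMH-21 replicate 3 and control replicate 1 were unlike the rest of their groups, with mean squared deviations (log2 scale) of 0.0696 and 0.0586 where the other 4 libraries had 0.0274 to 0.0331. Results below are given with and without these libraries where that matters. The 2 libraries were picked for their deviation in these same data, so leaving out both narrows the spread within groups by construction. Adjusted p-values from that setting describe the remaining libraries and are not an independent test.

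NPM1 was the most abundant of the 6 transcripts in both groups. In BMH-21 cells the order continued with NCL, NPM3, NOLC1, MYBBP1A and AATF. In control cells it was NPM1, NCL, NPM3, NOLC1, MYBBP1A and AATF as well, but NCL and NPM3 overlapped there, as did MYBBP1A and AATF in both groups. By mean level NPM1 ranked 168 of 25662 genes after BMH-21 and 189 in controls, and AATF ranked 1758 after BMH-21 and 1823 in controls. The 6 transcripts added up to 1626, 1480.2 and 1657 TPM in BMH-21 replicates 1 to 3, against 1235, 1682 and 1666 TPM in control replicates 1 to 3. Control replicate 1 thus had the lowest sum of all 6 libraries.

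**Figure D1:**
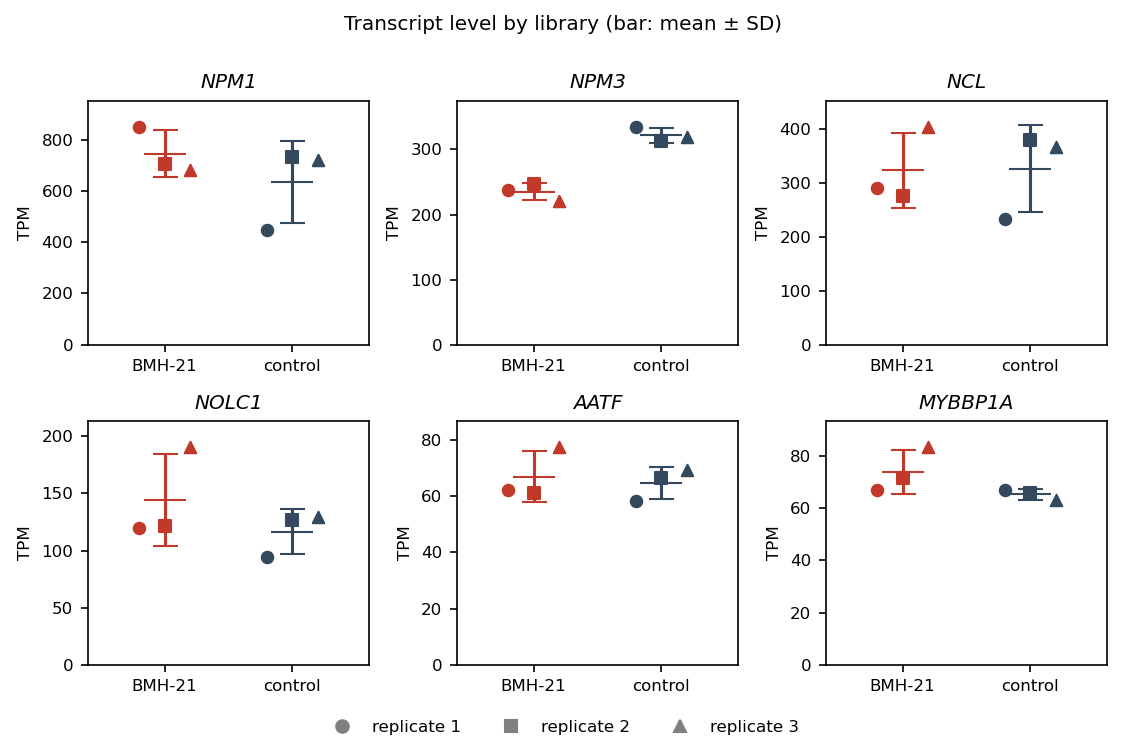
Transcript level in TPM of each of the 6 genes by library, with BMH-21 cells on the left and control cells on the right of each panel; points are libraries, bars are mean ± SD over 3 libraries, and each axis starts at 0. The groups are separate for NPM3, at 221 to 247 TPM after BMH-21 and 313 to 334 TPM in controls, and overlap for the other 5 genes.

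NPM3 fell after BMH-21, and of the 6 transcripts it was the 1 that passed the test with all libraries. In the fit across the 12041 genes kept, 36.4% of genes were called changed and 16.9% were called lower, by limma with Benjamini-Hochberg adjustment at an adjusted p under 0.05. Against that background, 0 of the 6 members were called higher, also at an unadjusted p under 0.05, and 1 was called lower. The groups did not overlap for 51.5% of the genes kept, 29.6% with BMH-21 higher and 22.0% with it lower, and for 1 of the 6 members, with BMH-21 lower. The median log2 fold change was 0.11 over the 6 members and 0.06 over all genes kept.

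NPM3, a member of the nucleoplasmin family of histone chaperones, was at 237, 247 and 221 TPM in BMH-21 replicates 1 to 3, against 334, 313 and 318 TPM in control replicates 1 to 3. Each BMH-21 library lay below each control library. The means were 235 ± 13.2 TPM after BMH-21 and 322 ± 11.2 TPM in controls (SD, n = 3 each), a ratio of 0.73. In RNA from bulk cells, fewer cells with a transcript and less of it per cell cannot be told apart. The log2 fold change was -0.45 (SE 0.074, 95% interval -0.62 to -0.29, limma adjusted p = 0.0017). Under 20 alternative settings the log2 fold change of NPM3 ran from -0.51 to -0.37 and the adjusted p from 6.0e-06 to 0.017, so the call held in each of them.

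NPM1, the larger relative, was at 849, 705 and 683 TPM in BMH-21 replicates 1 to 3, against 448, 732 and 719.7 TPM in control replicates 1 to 3. The groups overlapped, and control replicate 1 was far below the other 5 libraries. The means were 746 ± 90.2 TPM after BMH-21 and 633 ± 160.4 TPM in controls (SD, n = 3 each). The log2 fold change of 0.26 (SE 0.18, 95% interval -0.15 to 0.68) did not pass the test (limma adjusted p = 0.29). Without control replicate 1 it was 0.032 (adjusted p = 0.85), so the size of the difference rested on that library. A p that misses the threshold does not show that NPM1 was the same in both groups.

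The table also lists 20 NPM1 pseudogenes, whose near-identical sequence could share reads with NPM1. Their summed level was 5.20 to 6.98 TPM in the BMH-21 libraries and 3.90 to 5.13 TPM in the controls, small beside NPM1 itself. NPM2, the third nucleoplasmin, known for its role in sperm chromatin remodelling in the egg, was at 22.05, 18.8 and 14.7 TPM in BMH-21 cells, against 12.2, 10.1 and 14.6 TPM in controls. It rose in the test (log2 fold change 0.55, SE 0.18, limma adjusted p = 0.042). That call was lost without control replicate 1 (adjusted p = 0.086), without control replicate 2 (0.14) and without BMH-21 replicate 1 (0.15) or 2 (0.11), and also under 3 scalings, with no filter and with no variance trend.

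NPM1 and NPM3 were also set against each other within each library, which removes any scaling of the whole library. The log2 ratio of NPM1 to NPM3 was 1.84, 1.52 and 1.63 in BMH-21 replicates 1 to 3, against 0.42, 1.23 and 1.18 in control replicates 1 to 3. All 3 BMH-21 ratios were above all 3 control ratios, although the gap from the nearest control was small beside the distance of control replicate 1 from the other controls. The mean difference was 0.72. An exact two-sided permutation test of this ratio gave p = 0.1, the smallest that 3 libraries against 3 allow, and 0.25 after adjustment over the 15 pairs of members. Of the 15 pairs, 6 reached that smallest p, and 4 of those involved NPM3. Pairs share genes, so these 4 are not separate from the fall of NPM3. The share over all pairs of genes was not computed, and the groups did not overlap for 51.5% of single genes kept.

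**Figure D2:**
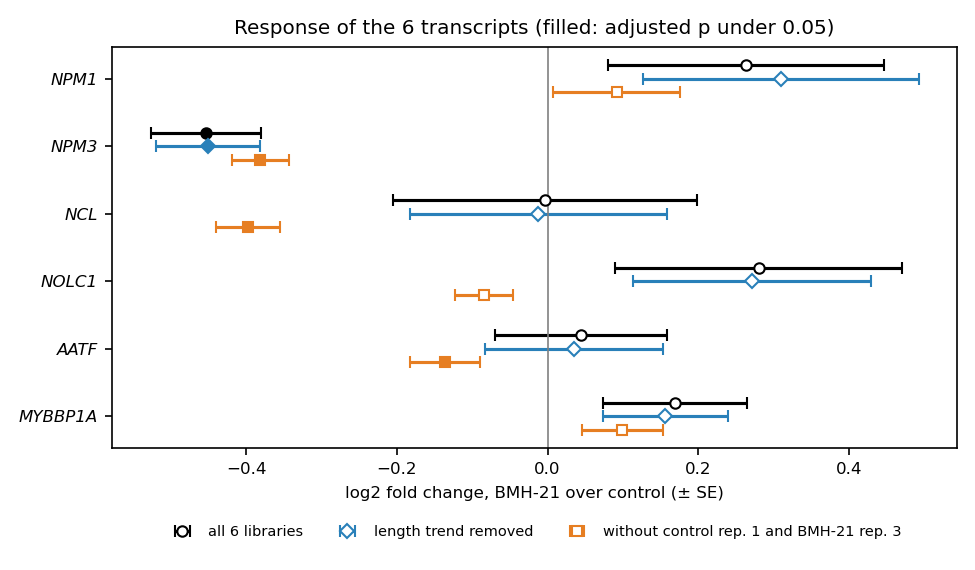
Log2 fold change of BMH-21 over control for each gene, with bars of ± SE, for all 6 libraries, with the trend over transcript length removed, and without control replicate 1 and BMH-21 replicate 3; filled symbols passed the test. NPM3 lies between -0.45 and -0.38 and is filled in all 3 settings, while NCL is at -0.0034 with all libraries and at -0.40 without both libraries.

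NCL had nearly the same mean in both groups when all libraries were used. Nucleolin transcripts were at 291, 274 and 403 TPM in BMH-21 replicates 1 to 3, against 233, 378 and 367 TPM in control replicates 1 to 3. The highest value of the 6 was in BMH-21 replicate 3 and the lowest in control replicate 1, so the 2 libraries that stand apart hold both ends of the range. The means were 323 ± 69.9 TPM after BMH-21 and 326 ± 80.4 TPM in controls (SD, n = 3 each), with a log2 fold change of -0.0034 (SE 0.20, 95% interval -0.46 to 0.46, limma adjusted p = 0.99). Without both libraries, the 2 remaining BMH-21 libraries were below the 2 remaining controls, and NCL passed as lower at -0.40 (SE 0.043, limma adjusted p = 0.00062). This setting took away the highest BMH-21 and the lowest control value of NCL, in libraries picked for their deviation in these same data. The p is therefore not an independent test. The median of all genes moved to -0.067 in that setting, in which 7061 genes were called. Leaving out either library alone did not give a call, with -0.23 without control replicate 1 (adjusted p = 0.32) and -0.17 without BMH-21 replicate 3 (adjusted p = 0.52).

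The ratio of NPM1 to NCL varied little among controls. Its log2 value was 1.55, 1.36 and 0.76 in BMH-21 replicates 1 to 3, against 0.94, 0.95 and 0.97 in control replicates 1 to 3. Control replicate 1, low for both transcripts, had a ratio just below those of the other controls, so these transcripts were low there in about the same proportion. BMH-21 replicates 1 and 2 lay above the controls and BMH-21 replicate 3 below them. The groups overlapped, and the exact permutation p was 0.4.

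NOLC1, which bridges small nucleolar ribonucleoproteins and treacle, was at 119.9, 121 and 190.3 TPM in BMH-21 replicates 1 to 3, against 94.1, 127 and 129 TPM in control replicates 1 to 3. The groups overlapped, and BMH-21 replicate 3 was well above the other 5 libraries. The means were 144 ± 40.2 TPM after BMH-21 and 117 ± 19.6 TPM in controls (SD, n = 3 each), with a log2 fold change of 0.28 (SE 0.19, 95% interval -0.15 to 0.71, limma adjusted p = 0.28). Without BMH-21 replicate 3 it was 0.063 (adjusted p = 0.74), and without control replicate 1 as well it was -0.084 (adjusted p = 0.11). NOLC1 and NCL were high and low in the same libraries. The log2 ratio of NCL to NOLC1 was 1.28, 1.18 and 1.08 in BMH-21 replicates 1 to 3, against 1.31, 1.58 and 1.504 in controls 1 to 3. The BMH-21 ratios were all below the control ratios, by 0.29 on average (exact permutation p = 0.1, adjusted p = 0.25).

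Of the partners listed with NOLC1, TCOF1 fell and the others did not pass the test. TCOF1 encodes treacle, which recruits factors to ribosomal DNA, and was at 11.2, 12.2 and 16.1 TPM in BMH-21 cells, against 50.2, 49.9 and 50.6 TPM in controls. Its log2 fold change was -1.87 (SE 0.13, limma adjusted p = 1.5e-05), and the groups were far apart. DKC1, the pseudouridine synthase of H/ACA particles, had a log2 fold change of 0.12 (adjusted p = 0.53), NAF1, an assembly factor of these particles, 0.097 (0.69) and COIL, the marker of Cajal bodies, 0.18 (0.43). KBTBD8, the adaptor of the ubiquitin ligase that joins NOLC1 to treacle, was below the level needed for the test, at 0.063 to 0.26 TPM after BMH-21 and 0.024 to 0.19 TPM in controls. So 1 of the 5 genes tested in this list was lower and 0 were higher by limma, also at an unadjusted p under 0.05, beside 16.9% lower and 19.4% higher over all genes.

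**Figure D3:**
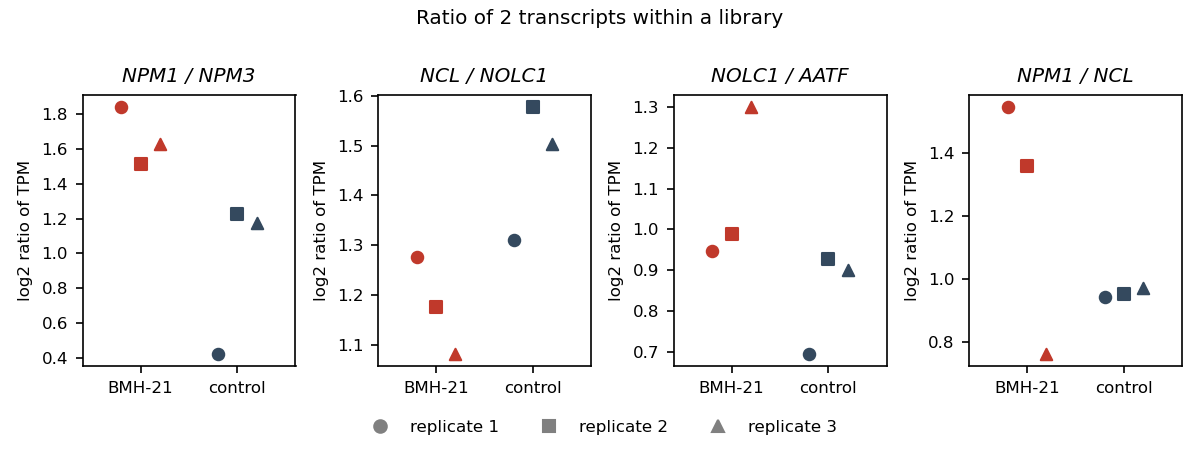
Log2 ratio of the TPM of 2 members within each library, for 4 of the 15 pairs, with BMH-21 on the left and control on the right; the vertical axes differ and do not start at 0. The NPM1 to NPM3 ratio is higher in all BMH-21 libraries (1.52 to 1.84) than in controls (0.42 to 1.23), and the NPM1 to NCL ratio spans 0.76 to 1.55 after BMH-21 and 0.94 to 0.97 in controls.

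AATF was close to the same mean level in both groups. It was at 62.2, 61.2 and 77.4 TPM in BMH-21 replicates 1 to 3, against 58.1, 66.6 and 69.3 TPM in control replicates 1 to 3. The groups overlapped, with BMH-21 replicate 3 highest and control replicate 1 lowest, as for NCL. The means were 66.9 ± 9.05 TPM after BMH-21 and 64.7 ± 5.82 TPM in controls (SD, n = 3 each), with a log2 fold change of 0.045 (SE 0.11, 95% interval -0.22 to 0.30, limma adjusted p = 0.79). Without both of these libraries the sign turned and AATF passed as lower by a small amount (-0.14, SE 0.046, adjusted p = 0.046). That setting was picked on these same data, as for NCL.

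NGDN and NOL10, the other subunits of the AATF complex in small subunit maturation, did not pass the test either. NGDN was at 27.1, 21.5 and 23.5 TPM in BMH-21 cells, against 17.1, 25.5 and 25.2 TPM in controls (log2 fold change 0.10, limma adjusted p = 0.67). NOL10 was at 12.01, 11.4 and 15.5 TPM in BMH-21 cells, against 9.76, 11.9 and 11.95 TPM in controls (log2 fold change 0.19, limma adjusted p = 0.38). For both, as for AATF, control replicate 1 was the lowest library. By limma 0 of these 3 genes were called, and 0 at an unadjusted p under 0.05, beside 36.4% called over all genes.

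MYBBP1A was at 66.7, 71.4 and 83.2 TPM in BMH-21 replicates 1 to 3, against 66.9, 65.8 and 63.0 TPM in control replicates 1 to 3. The controls lay close together, and the lowest BMH-21 library was just under the highest control. The means were 73.8 ± 8.49 TPM after BMH-21 and 65.2 ± 2.02 TPM in controls (SD, n = 3 each), with a log2 fold change of 0.17 (SE 0.096, 95% interval -0.050 to 0.39, limma adjusted p = 0.20). Among the 6 transcripts, MYBBP1A and NPM3 were the ones not lowest in control replicate 1. Without BMH-21 replicate 3 the log2 fold change of MYBBP1A was 0.081 (adjusted p = 0.35), and without both libraries that stand apart it was 0.099 (adjusted p = 0.16). MYBBP1A passed as higher, at 0.14 (limma adjusted p = 0.022), when libraries were given array weights. Those weights were estimated from the spread of these same data, and 8158 genes were called with them. That p is therefore not an independent test.

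MYBBP1A is also a subunit of B-WICH, a chromatin remodelling assembly that acts on ribosomal DNA. Of 8 genes listed for it, 1 was lower and 0 were higher by limma, and at an unadjusted p under 0.05 2 were lower and 0 higher. Over all genes 16.9% were called lower and 19.4% higher. DEK, a chromatin protein, was at 3.72, 3.13 and 4.11 TPM in BMH-21 cells, against 4.69, 8.35 and 8.03 TPM in controls. It fell with a log2 fold change of -0.76 (limma adjusted p = 0.026), a call lost without BMH-21 replicate 1 or 2 (adjusted p = 0.065 and 0.092), without control replicate 2 or 3 (0.093 and 0.092) and with no filter (0.069). BAZ1B, the bromodomain subunit, was at -0.61 and short of the threshold (adjusted p = 0.080), but passed without BMH-21 replicate 3 (-0.85, adjusted p = 0.018), without control replicate 1 (-0.83, adjusted p = 0.029) and without both (-1.07, adjusted p = 9.6e-05). It also passed under 3 other scalings, array weights, the replicate block (adjusted p = 0.011) and with the length trend removed. SMARCA5, the ATPase, was at -0.0032 and MYO1C, nuclear myosin, at 0.0074. DDX21, a nucleolar RNA helicase, was at 0.20, ERCC6 at 0.22 and the splicing factor SF3B1 at 0.37, and none of these 5 passed. SMARCA5 (2.74 to 5.16 TPM) and ERCC6 (1.22 to 2.29 TPM) were low, where log2(TPM + 1) understates changes. With a pseudocount of 0.1 ERCC6 was at 0.33, also without a call.

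The deviations of the libraries that stand apart went with annotated transcript length across all genes, and the members are spread over that range. The median annotated length of coding transcripts was 877 bases for NPM3, 1468 for NPM1, 2141 for AATF, 3932 for NOLC1, 4034 for NCL and 4455.5 for MYBBP1A. Over the 10798 kept genes with a length, in 5 bins from shortest to longest, the median log2 level of BMH-21 replicate 3 relative to the other BMH-21 libraries was -0.070, 0.099, 0.21, 0.29 and 0.39. For control replicate 1 relative to the other controls it was -0.080, -0.11, -0.13, -0.21 and -0.31. NOLC1 and NCL, in the fourth bin, were at 0.65 and 0.51 in BMH-21 replicate 3, above that bin's median, and at -0.44 and -0.67 in control replicate 1, below it. NPM1, in the shortest bin, was at -0.18 in BMH-21 replicate 3 but at -0.69 in control replicate 1, far from the median of that bin. NPM3, in the same bin, was at -0.13 in BMH-21 replicate 3 and 0.083 in control replicate 1. AATF, in the third bin, was at 0.32 and -0.22 in these libraries. MYBBP1A, in the longest bin, was at 0.27 in BMH-21 replicate 3 but at 0.055 in control replicate 1, against the direction of that bin's median.

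**Figure D4:**
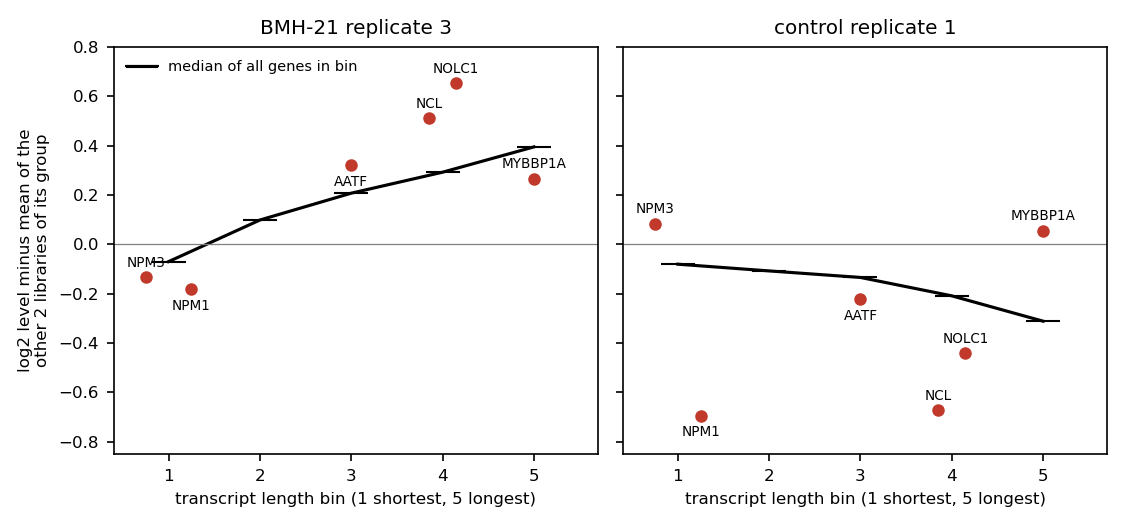
Log2 level of BMH-21 replicate 3 (left) and control replicate 1 (right) minus the mean of the other 2 libraries of the same group, against the bin of annotated transcript length; the line joins the medians of all genes in each bin and red points are the 6 genes. The median climbs to 0.39 in the longest bin for BMH-21 replicate 3 and drops to -0.31 for control replicate 1, and NPM1 is at -0.69 in control replicate 1.

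With each library's trend over length removed, a setting added after seeing the data, NPM3 stayed lower (-0.45, limma adjusted p = 0.00090) and the other 5 members again did not pass. NCL was then at -0.012 with an SE of 0.17, and NPM1 at 0.31 with an SE of 0.18. The share of TPM from the mitochondrial genome was also highest in these libraries, at 26.1% in BMH-21 replicate 3 and 25.8% in control replicate 1, against 20.3% to 21.6% in the other 4. The share from ribosomal protein genes was lowest in them, at 16.4% in BMH-21 replicate 3 and 19.9% in control replicate 1, against 20.6% to 22.6% in the other 4. Rescaling without mitochondrial genes, or without both sets of genes, gave the same calls for the 6 members. What sets these libraries apart was not tested.

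Other nucleolar proteins were described from lists chosen with earlier results of these data known. Of 19 genes of the granular component, the layer in which NPM1 and NPM3 are found, 7 were higher and 4 lower, while 8 gave no call, beside 19.4% higher and 16.9% lower over all genes, and the median log2 fold change was 0.26 against 0.06 for all genes kept. WDR12, a large subunit assembly factor, was at 87.3, 78.7 and 95.5 TPM in BMH-21 cells, against 39.7, 54.1 and 49.7 TPM in controls, and rose by 0.86 on the log2 scale (limma adjusted p = 0.0010). NIFK, which binds Ki-67, and SURF6, a nucleolar matrix protein, rose by 0.81 and 0.79 (adjusted p = 0.0017 and 0.00064). MKI67, which encodes Ki-67, the coat of mitotic chromosomes, was at 0.22 to 0.24 TPM after BMH-21 and 13.3 to 24.7 TPM in controls, with a log2 fold change of -4.04 (adjusted p = 3.2e-06). The binding partners NIFK and MKI67 thus changed in opposite directions.

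Also in the granular list, NOP53, a large subunit assembly factor that binds RPL11, was at 167, 171 and 132 TPM after BMH-21, against 348, 335 and 348 TPM in controls, and fell with a log2 fold change of -1.14 (limma adjusted p = 5.7e-05). GNL3, nucleostemin, was at 62.2, 58.7 and 65.8 TPM after BMH-21, against 27.7, 51.5 and 54.7 TPM in controls. Its groups did not overlap, but control replicate 1 was again low and GNL3 missed the threshold (log2 fold change 0.53, adjusted p = 0.095). It passed without control replicate 3 (0.70, adjusted p = 0.047) and without both libraries that stand apart, where it was 0.19 (adjusted p = 0.032).

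Of 12 genes of the fibrillar layers, where NCL and NOLC1 are found, 1 was higher and 4 were lower, 7 gave no call, and the median log2 fold change was -0.012. The total of 5 calls is near the 36.4% called over all genes. By direction, the lower calls are above the 16.9% called lower over all genes, and the higher call is below the 19.4% called higher. NOL6, a small subunit processome protein, rose by 0.55 (limma adjusted p = 0.0039). TCOF1 (above), FBL, the methyltransferase fibrillarin, and NOP56, a scaffold of the same particles, fell, FBL with a log2 fold change of -0.93 and NOP56 with -0.46 (adjusted p = 5.0e-05 and 0.011). NOP56 was at 205, 201 and 248 TPM after BMH-21, against 264, 316 and 324 TPM in controls, so its groups were apart although BMH-21 replicate 3 was again the highest of its group.

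**Figure D5:**
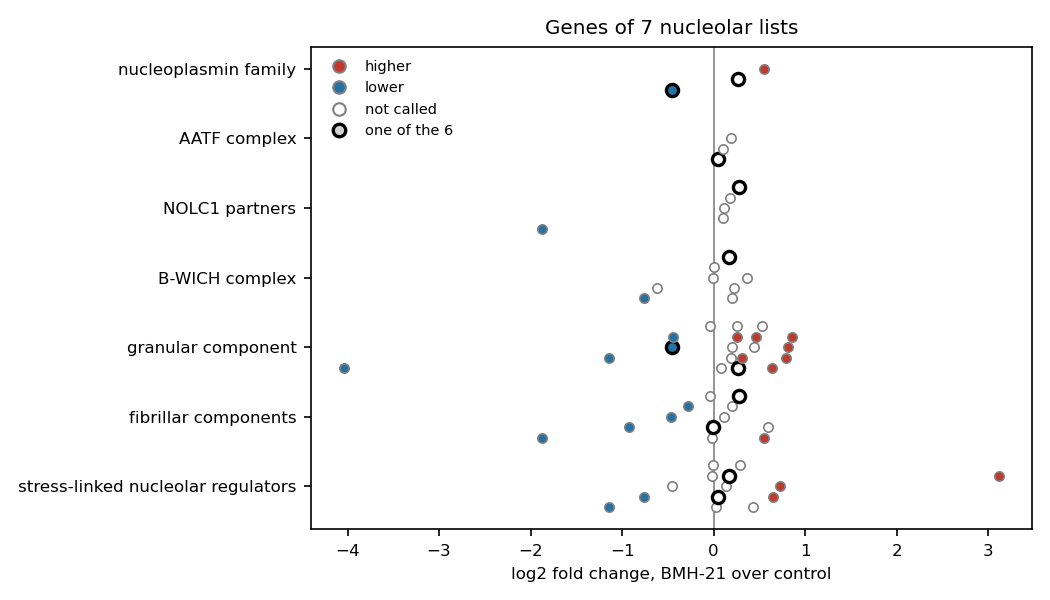
Log2 fold change of BMH-21 over control for each tested gene of 7 nucleolar lists; red points were called higher, blue points lower and open points were not called, and thick outlines mark the 6 genes (vertical offsets within a list only separate the points). Members lie between -0.45 and 0.28, while MKI67 at -4.04, TCOF1 at -1.87 and MDM2 at 3.12 lie far from 0.

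Among 14 regulators that link the nucleolus to p53 and growth, a list that includes AATF and MYBBP1A, 3 were higher and 2 lower, and 9 gave no call, again near the 36.4% called over all genes. MDM2, the ubiquitin ligase of p53, rose by 3.12 on the log2 scale (limma adjusted p = 2.6e-05), and HEXIM1, an inhibitor of P-TEFb that binds NPM1, by 0.65 (adjusted p = 0.014). MYC, an activator of NPM1 and NCL transcription, was at 324, 332 and 494 TPM after BMH-21, against 195, 246 and 243 TPM in controls, and rose by 0.73 (adjusted p = 0.0090). CDKN2A, whose ARF product binds NPM1, was at 40.1, 43.6 and 38.2 TPM after BMH-21, against 63.9, 71.7 and 73.5 TPM in controls, and fell with a log2 fold change of -0.76 (adjusted p = 0.00034). The table gives 1 value for CDKN2A, so transcripts for ARF and p16 cannot be told apart. XPO1, the export receptor of NPM1, did not pass (0.13, adjusted p = 0.63).

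For each member the 3 genes with the most similar profile over the 6 libraries were found among 2251 genes with a mean of at least 50 TPM, by the root mean square difference of log2(TPM + 1) values centred on each gene's mean. NPM3 was closest to RPS26, PFN1 and CUTA, at 0.018, 0.025 and 0.028. Their log2 fold changes were -0.45, -0.42 and -0.50. NCL was closest to CPOX, CANX and ASPH, at 0.017, 0.049 and 0.060, and NPM1 to OAT, SRP9 and MORF4L2, at 0.070, 0.087 and 0.095. The profile of NPM1 was thus farther from its nearest genes than that of any other member from its own. NOLC1 was closest to MAT2A, TRIB1 and APP, at 0.046 to 0.053, AATF to YWHAB, NAT10 and ZNF207, at 0.035 to 0.038, and MYBBP1A to ESRRA, UQCRFS1 and E2F4, at 0.027 to 0.032. These genes were chosen for their likeness over the same libraries, so their fold changes and calls follow those of the member by construction. No gene was listed for more than 1 member.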

How the data were processed

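RNA from 3 BMH-21 and 3 control libraries of HCT116 cells was extracted with Trizol and made into cDNA with random hexamers, per the labels' protocols, which name both polyA RNA and ribosomal RNA removal. The deposited values are TPM per gene and library, made by the authors. The submitters' processing notes name STAR, Salmon and GRCh38. Of the versions, the annotation and the strand setting nothing was stated in the sources used here. The comparison was made on log2(TPM + 1) with an intensity trend (limma 3.58.1, R 4.3.3), over 12041 genes with at least 1 TPM in at least 3 libraries, two-sided, with Benjamini-Hochberg adjustment. Fold changes on this scale understate changes of low genes. TPM keeps no depth, so no counting interval is given. Members and lists were chosen with earlier results of these data known. Named genes were all members, all genes of lists of up to 8 genes, up to 3 called genes in each direction of longer lists, and 6 further genes fixed by name (NIFK, MKI67, GNL3, MYC, CDKN2A and XPO1). Pairs of members were compared by exact permutation over the 20 arrangements of libraries. Alternatives changed the pseudocount, filter, scaling, trend, library weights, block and libraries used. Transcript lengths and coordinates are from GENCODE release 29, and promoters from RefSeq. Markers CDX1 and PTPRC were also looked for, but no value was obtained for them.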

Additional observations from a re-analysis of the deposited data

How the results depend on the processing

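NPM3 was called lower in all 20 alternatives, and NPM1 and NOLC1 in none. With array weights, estimated from these same data, 8158 of the 12041 genes kept were called, 3592 higher and 4566 lower. Of the 6 members, 1 was then higher (MYBBP1A, 0.14) and 3 were lower (NPM3, NCL at -0.38, and AATF, whose sign turned, at -0.13). Without control replicate 1 and BMH-21 replicate 3 together, leaving 2 libraries a group, 7061 of the 12041 genes were called, 4144 of them lower. In that setting 3 of the 6 members were lower (NPM3, NCL at -0.40, and AATF, whose sign turned, at -0.14), and the cause was not tested. These 2 settings each gave 1 call among the 3 genes of the AATF complex and 8 among the 12 of the fibrillar list. Of the 14 regulators, 10 (weights) and 8 (both left out) were called, and of the 8 B-WICH genes 3 and 2. Such counts are to be read beside the large shares of all genes called in the same settings. B-WICH had 0 calls with no filter and with a minimum of 5 TPM, and 2 with a trimmed mean, median of ratios, quantile normalization, the replicate block and the length trend removed. The nucleoplasmin family had 1 call with no filter, no trend and those 3 scalings. Leaving out 1 library at a time gave 0 to 2 calls in B-WICH, 1 to 2 in the nucleoplasmin family, 1514 to 2812 genes lower, 1659 to 2307 higher and 3173 to 5119 in all. The lowest total was without BMH-21 replicate 2 and the highest without BMH-21 replicate 3. Same-numbered libraries did not deviate together (correlations 0.044, -0.14 and 0.019), and with the replicate block 4608 genes were called no member's call changed, and GNL3 passed (adjusted p = 0.011). For the partner genes named, 589 values over the alternatives kept their side of the threshold, 16 lost and 12 gained a call, and no called value reversed, while uncalled values near 0, such as those of SMARCA5 and MYO1C, changed sign in some settings. Depth is unknown, so its limit on precision cannot be given.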

Other observations

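PES1, BOP1 and WDR12 form 1 complex of the granular component that acts in the maturation of the large subunit, and their transcripts did not change alike; PES1 and BOP1 were named after their values were seen. PES1 was at 218, 219 and 204 TPM after BMH-21, against 168, 171 and 175 TPM in controls, and rose by 0.31 on the log2 scale (limma adjusted p = 0.0075), a call lost with a trimmed mean or median of ratios scaling (adjusted p = 0.13 in each). BOP1 was at 167, 177 and 158 TPM after BMH-21, against 233, 229 and 219 TPM in controls, and fell with a log2 fold change of -0.44 (adjusted p = 0.0020). WDR12 rose by 0.86. EBNA1BP2, also of the granular list and named after its value was seen, was at 150.1, 143 and 156 TPM after BMH-21, against 96.9, 98.4 and 93.3 TPM in controls, and rose by 0.63 (adjusted p = 0.00022).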
